A study of Rattus norvegicus with 30 samples.

Results

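Promoters captured more in the ipsilateral hippocampus than in the perilesional cortex or the ipsilateral thalamus were collected here, 119 of 19758 promoters that could be matched between the 3 tissues. Each was chosen from its methylated-DNA signal in CPM, the reads of a promoter scaled to the same total of promoter reads in every library. A promoter was taken when its median over the 10 hippocampus libraries was at least 20 CPM and when that median, with 1 CPM added, was at least 2 times the median of the cortex and of the thalamus. The hippocampus medians, the cortex medians and the thalamus medians therefore chose the members, and the differences between tissues below are a description without a test.

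The libraries came from methyl-CpG-binding-domain sequencing (MBD-seq) of genomic DNA from 10 adult male Sprague-Dawley rats. Rats 1 to 5 were sham controls that had the anaesthesia and surgery without the impact, and rats 6 to 10 had a traumatic brain injury (TBI) by lateral fluid percussion, a pressure pulse delivered to the intact dura through a hole in the left skull. All tissue was taken 3 months after the operation, and each rat gave 1 library from each of the 3 tissues, so that the 30 libraries form 6 groups of 5. The piece called hippocampus was dissected as dentate gyrus with the adjoining part of the CA3 field. Age is given only as adult, and all animals were of 1 sex and 1 stock.

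In MBD-seq, fragmented DNA is bound to a protein domain that recognises methylated CpG dinucleotides, and what was bound is sequenced. A promoter's count rises with the number of CpGs in it, the share of them that is methylated and the number of copies of its sequence, so the count does not give a methylation level and cannot tell these apart. DNA methylation at CpG-rich promoters commonly accompanies low transcription, and methylation patterns differ between cell types. The dentate gyrus is packed with granule cells, a type of excitatory neuron that neither the cortex nor the thalamus contains. A bulk piece of tissue cannot separate a changed mixture of cells from a change within a cell.

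Promoters were windows reaching from upstream to just past each annotated transcription start, on the rat build Rnor_5.0, and were named by Ensembl gene identifiers alone. None of the 119 identifiers (0 of 119) could be paired with a gene symbol or a sequence, so the members are named by identifier, the lists of cell type markers could not be looked up, and neither the tissue labels nor the gene functions were checked through marker genes. For 4 members all counts were the same as those of another member in all 3 tissues. For 8 members they were the same in at least 1 tissue, so these identifiers are not separate measurements there. Why their counts were the same was not tested.

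The libraries held 1430880 to 2440660 promoter reads in hippocampus, 1862710 to 3992060 in cortex and 2675180 to 4227800 in thalamus. They also differed in how unevenly the reads were spread over promoters. The ratio of the 90th to the 10th percentile of CPM + 1 had a median of 16.5 in hippocampus, 6.17 in cortex and 7.52 in thalamus. Some libraries stood apart from their tissue in this measure. The hippocampus library of sham rat 5 had a ratio of 7.34, and in cortex sham rat 4 had 12.3 and TBI rat 6 had 13.1. The thalamus library of TBI rat 6 had a ratio of 20.3. The results are given with and without these libraries where they rest on them. The labels name 1 sequencer for all libraries, whereas the RNA-seq description to which the study's MBD-seq methods refer gives another model for the thalamus, and if that applied here a difference from thalamus cannot be told apart from one between instruments.

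The 119 promoters ranked among the most strongly captured in hippocampus. Their hippocampus medians ran from 26.7 to 1354 CPM around a median of 195, while all matched promoters had a median of 20.9 CPM in hippocampus. In cortex the members ran from 9.85 to 575 CPM with a median of 82.7. In thalamus they ran from 3.67 to 517 CPM with a median of 55.8. In the middle hippocampus library the median member stood at percentile 98.7 of all matched promoters, in the middle cortex library at percentile 93.1 and in the middle thalamus library at percentile 77.5. As a group the members were thus strongly captured in hippocampus and also in cortex. In thalamus their lower quartile was 23.5 CPM, below the median of 30.6 CPM over all matched promoters, so not all were strongly captured there.

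For most members the excess lay just above the level required. The ratio of hippocampus to cortex ran from 2.00 to 7.60 with a median of 2.24, and the ratio to thalamus from 2.01 to 99.7 with a median of 2.88. The members nearest the boundary had smaller ratios of 2.003, 2.006 and 2.008, and the promoters just outside it had 1.998, 1.997 and 1.996. The number also depended on the scaling, since TMM factors gave 759 promoters that included all 119, and bringing all libraries to 1 distribution gave 184 that included 60 of them. At 3 times in place of 2 times, 12 promoters would have been taken, and at 1.5 times 594. The 5 sham rats alone gave 89 promoters, 79 of them members, and the 5 TBI rats alone gave 167, 114 of them members. Of the 119, 76 met the rule in both operations, 38 only in TBI rats, 3 only in sham rats and 2 in neither. This difference in membership was not tested. By the criterion on cortex alone 153 promoters would have been taken, and by the one on thalamus alone 329. The cortex was therefore the tissue that limited the choice.

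**Figure D1:**
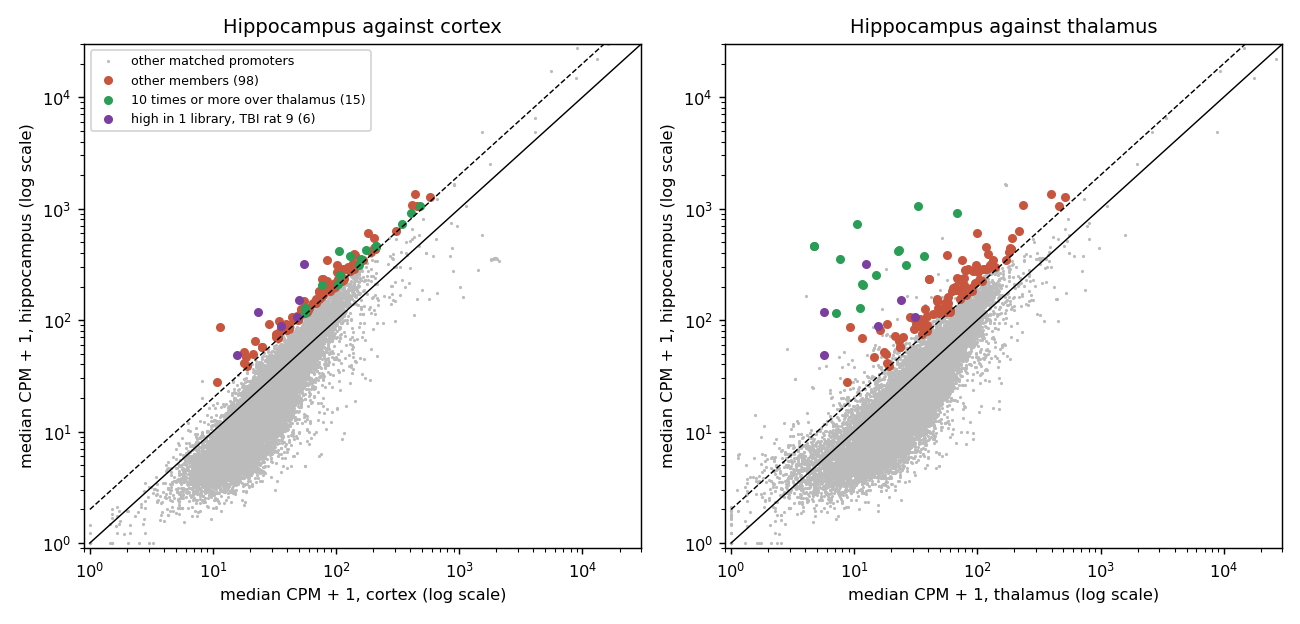
Median CPM + 1 of each matched promoter in hippocampus (vertical, log scale) against cortex (left) and thalamus (right, both log scale), over 10 libraries a tissue. The solid line marks equal values and the dashed line 2 times; coloured points are the 119 members, which lie above the dashed line in both panels, and grey points are the other promoters.

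The share of promoters that qualified rose with their level. Of the 5901 matched promoters between 20 and 50 CPM in hippocampus, 6 were members (0.102%), and of the 953 between 100 and 200 CPM, 35 were (3.67%). Between 200 and 500 CPM 48 of 181 promoters were members (26.5%), and at 500 CPM or more 10 of 37 (27.0%). The rule used the hippocampus level, so a rise of this kind is partly built in. Over all 19758 promoters together the median ratio of hippocampus to cortex was 0.743 and that to thalamus 0.770. With promoters grouped by their thalamus median, which is not part of the ratio, the median ratio of hippocampus to cortex was 0.503 to 0.618 in the bands below 20 CPM, 0.744 at 20 to 50 CPM, 1.02 at 50 to 100 CPM, 1.32 at 100 to 200 CPM, 0.953 at 200 to 500 CPM and 1.20 at 500 CPM or more. It thus rose up to the band of 100 to 200 CPM and not beyond. Its part in the choice of the 119 was not tested.

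The members' level in a library moved with the spread of that library. The median CPM over the 119 members in the sham hippocampus of rats 1 to 5 was 202, 156, 228, 275 and 91.9. In the TBI hippocampus of rats 6 to 10 it was 150, 240, 210, 197 and 176. Rat 5, with the smallest ratio of the 90th to the 10th percentile in hippocampus, also had the lowest level, and the other 9 libraries lay at 150 or above. In the sham cortex the members' median was 45.1, 98.1, 96.5, 211 and 88.0 CPM. In the TBI cortex it was 149, 81.1, 73.2, 73.7 and 29.1 CPM. The cortex libraries of rats 4 and 6 reached the hippocampus range, and the cortex library of rat 10, with the smallest ratio of all 30 (2.48), had the lowest level. In the sham thalamus the values were 46.7, 49.2, 59.0, 52.3 and 64.2 CPM. In the TBI thalamus they were 69.5, 46.9, 54.5, 59.5 and 48.6 CPM. The thalamus was the most even tissue, with rat 6 the highest. Whether these differences came from the tissue, the capture or the composition of the sample was not tested.

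**Figure D2:**
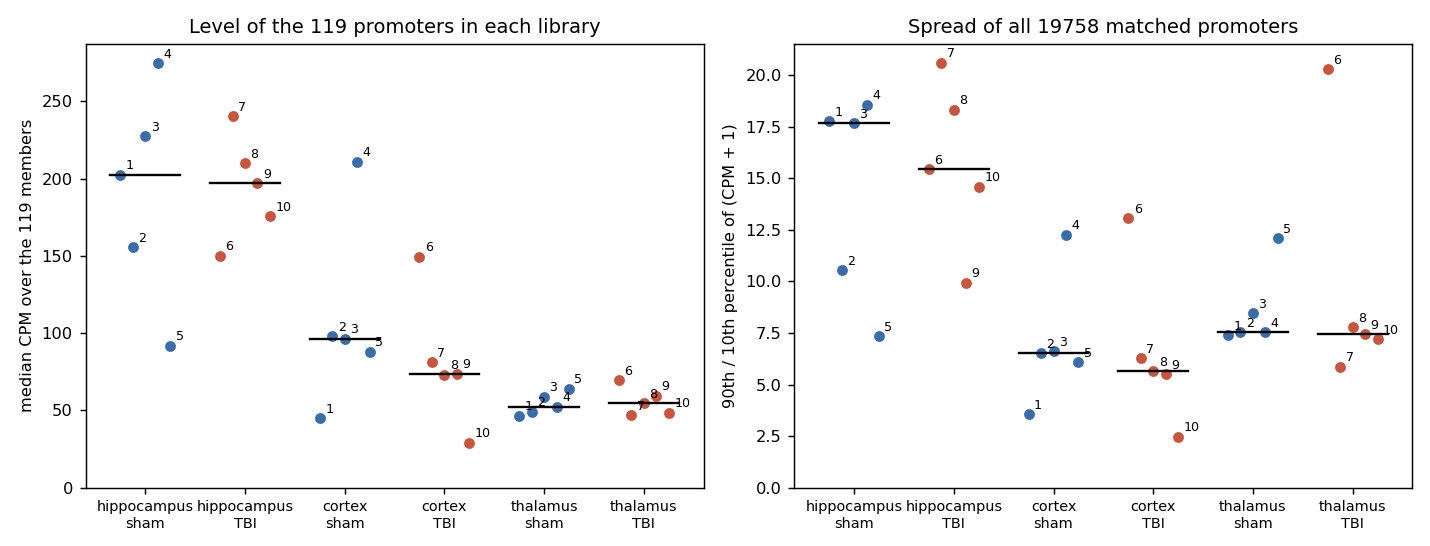
Left, the median CPM over the 119 members in each library; right, the 90th divided by the 10th percentile of CPM + 1 over all matched promoters. Points are libraries labelled with the rat number, blue for sham and red for TBI, and bars are medians of 5; the cortex libraries of rats 4 and 6 lie with the hippocampus in both panels, and hippocampus rat 5 lies below its tissue.

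Because each rat gave all 3 tissues, the excess could be followed rat by rat. In rats 1, 3, 7, 8, 9 and 10, 116, 95, 110, 112, 99 and 108 of the 119 members were at least 2 times higher in hippocampus than in both other tissues. In rats 2, 4, 5 and 6 only 13, 8, 4 and 8 were. Among all matched promoters at 20 CPM or more in a rat's hippocampus, 220 to 494 were so in the former 6 rats and 22, 13, 29 and 23 in rats 2, 4, 5 and 6. The hippocampus value exceeded the cortex value without regard to size for 119, 119, 112, 118 and 99 members in rats 1 to 5. It did so for 62, 118, 119, 119 and 119 in rats 6 to 10. It exceeded the thalamus value for all 119 members in every rat but rat 5, where it did so for 77. Over members, 47 were above cortex in all 10 rats, 58 in 9 and 14 in 8. The lowest counts fell on rat 6 for cortex and on rat 5 for thalamus, which gave libraries that stood apart. The rule chose members by their excess over both tissues, so high counts above cortex and thalamus are largely built in. For these counts without regard to size, the shares over all matched promoters were not computed.

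The ranges over all libraries overlapped between hippocampus and cortex for nearly every member. In 63 members all 10 hippocampus libraries were above all 10 thalamus libraries, as in 442 (2.24%) of all matched promoters. In 2 members all 10 were above all 10 cortex libraries, as in 18 promoters (0.0911%), and the same 2 were above both tissues, as were 8 promoters (0.0405%). Hippocampus rat 5 was below the other 9 hippocampus libraries in 99 members. Cortex rats 4 and 6 were both above the other 8 cortex libraries in 103 members. The shares over all matched promoters were not computed for these counts. These libraries also stood apart in spread over all promoters. Without those shares the counts cannot be assigned to the libraries or to the members. With hippocampus rat 5, cortex rats 4 and 6 and thalamus rat 6 left out, the hippocampus was above every cortex library in 99 members, above every thalamus library in 110, and above both in 94. Over all matched promoters this held for 802 (4.06%), 920 (4.66%) and 493 (2.5%). These libraries were set aside after their values were seen, and leaving libraries out can only raise such counts. Hippocampus rat 5 had the lowest member level of its tissue, and the cortex and thalamus libraries left out had the highest of theirs. Cortex rat 10 was kept, although it had the smallest percentile ratio of all 30 libraries (2.48) and the lowest member level (29.1 CPM). All counts in this paragraph use the contrast that chose the members.

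In hippocampus and cortex most members rose and fell together from library to library, and in thalamus fewer did. The correlation of a member with the members' median profile on the scale of log2(CPM + 1) had a median of 0.929 over the 10 hippocampus libraries, 0.973 over the 10 cortex libraries and 0.780 over the 10 thalamus libraries. It was above 0.9 for 76 members in hippocampus, 99 in cortex and 20 in thalamus, and below 0.5 for 8, 8 and 29. The points share a library and the member itself is part of the median profile, so these values are given as a description. No such correlation was computed for other promoters, so it is not shown to be particular to the members. The coefficient of variation of the members over 10 libraries had a median of 30.2% in hippocampus, 56.1% in cortex and 22.1% in thalamus. Among the 1078 promoters at 100 CPM or more in hippocampus that were not members it was 19.0%, 35.5% and 15.2%. The sets differ in level, since 26 members lie below 100 CPM and 6 have the extreme value in rat 9. Between 200 and 500 CPM in hippocampus, with those 6 left out, the median was 30.7%, 58.6% and 22.3% for 47 members and 22.5%, 45.0% and 17.7% for 133 other promoters, in the same order of tissues.

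**Figure D3:**
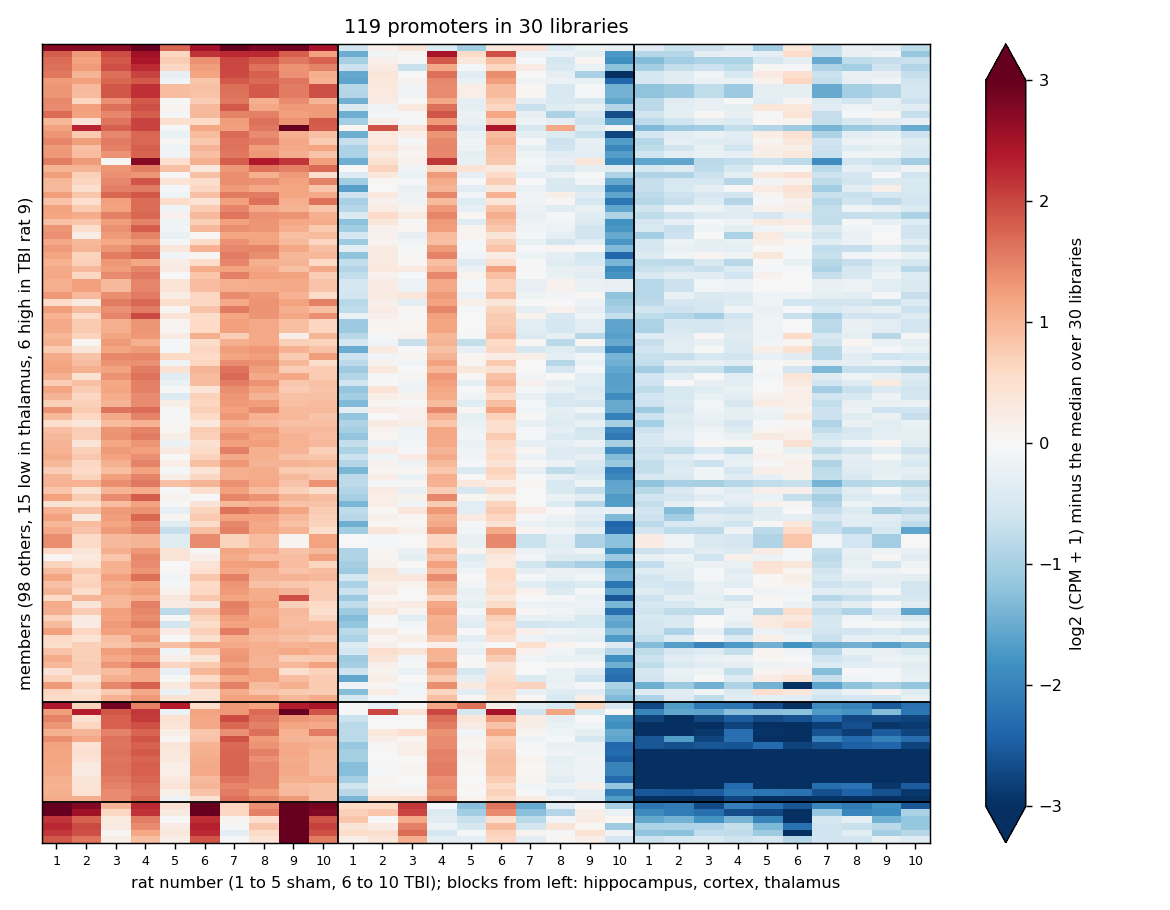
Each row is 1 of the 119 members and each column 1 of the 30 libraries; colour is log2(CPM + 1) minus the row's median over all libraries, with the colour scale cut off at 3 either way. The hippocampus block is red except for rat 5, the cortex columns of rats 4 and 6 are red and that of rat 10 is blue, and the 2 lower blocks hold the 15 members that are low in thalamus and the 6 that are high in hippocampus rat 9.

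The 2 members without overlap are given in full. ENSRNOG00000006876 had the largest smaller ratio of all members, 7.60 to cortex and 9.43 to thalamus. Its CPM in the sham hippocampus was 85.8, 86.7, 84.2, 111 and 42.9, and in the TBI hippocampus 74.2, 136, 92.5, 95.6 and 71.7. In the sham cortex it was 7.79, 13.6, 15.9, 8.87 and 5.37, and in the TBI cortex 15.5, 16.4, 9.03, 10.7 and 10.3. In the sham thalamus it was 9.28, 7.29, 7.53, 8.97 and 5.30, and in the TBI thalamus 15.1, 6.97, 10.1, 9.41 and 6.70. The lowest hippocampus library, that of rat 5, was above the highest of the other 20 libraries. In hippocampus rat 5 was again the lowest and in thalamus rat 6 the highest, but the cortex libraries of rats 4 and 6 stayed within the range of the other cortex libraries at this promoter.

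ENSRNOG00000016284, singled out after its values were seen, had smaller ratios of 2.02 to cortex and 5.95 to thalamus but the most even hippocampus values, with a coefficient of variation of 13.4%. Its CPM in the sham hippocampus was 47.9, 54.5, 60.6, 67.8 and 62.6, and in the TBI hippocampus 74.2, 74.1, 71.6, 67.4 and 70.9. In cortex it lay between 24.6 and 47.2 CPM and in thalamus between 7.53 and 12.7 CPM. Hippocampus rat 5 and cortex rats 4 and 6 lay within the range of the other libraries of their tissue. All 3 tissues were separate from each other.

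The members with the highest hippocampus level followed the common pattern. ENSRNOG00000025889 had the highest median, 1354 CPM, against 435 CPM in cortex and 393 CPM in thalamus. Its sham hippocampus values were 1459, 981, 1522, 1963 and 407 CPM, and its TBI values 1105, 1912, 1675, 1250 and 1025 CPM. Its cortex values were 167, 625, 476, 1515 and 379 CPM in sham and 1281, 490, 395, 247 and 57.6 CPM in TBI rats. Rat 5 in hippocampus lay below the sham cortex libraries of rats 2, 3 and 4, and cortex rats 4 and 6 lay inside the hippocampus range.

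ENSRNOG00000006681 was the next by level, with a median of 1280 CPM in hippocampus, 575 CPM in cortex and 517 CPM in thalamus. Its hippocampus libraries ran from 734 to 1559 CPM, its cortex libraries from 205 to 1265 CPM and its thalamus libraries from 360 to 948 CPM. The hippocampus was above the cortex in all 10 rats, although the ranges overlapped. ENSRNOG00000024145 had a median of 1072 CPM in hippocampus, 416 CPM in cortex and 233 CPM in thalamus. Its sham hippocampus values ranged from 415 to 2679 CPM, so the spread within 1 group was wider than the difference between the tissue medians.

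**Figure D4:**
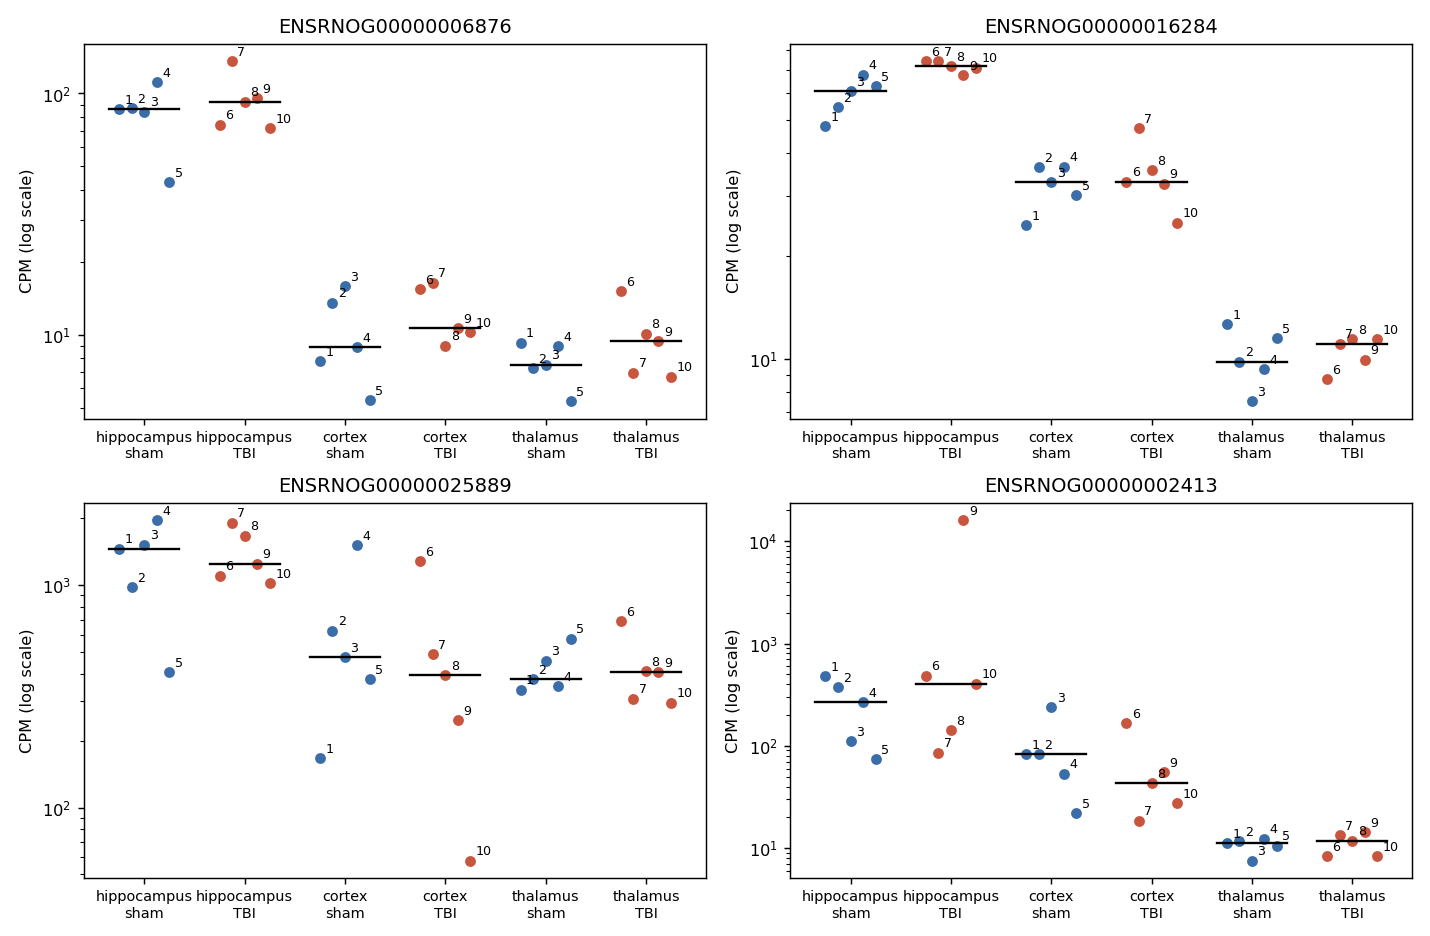
CPM on a log scale of 4 members in the 30 libraries, by tissue and operation, with the rat number beside each point and a bar at the median of 5. In the upper panels the hippocampus points lie above all others; in the lower left cortex rats 4 and 6 lie among the hippocampus points, and in the lower right hippocampus rat 9 lies at 16052 CPM.

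A group of 15 members was set apart by the thalamus. Their hippocampus median was at least 10 times the thalamus median, with ratios from 10.1 to 99.7. In hippocampus they ran from 114 to 1054 CPM and in cortex from 54.7 to 475 CPM, but in thalamus from 3.67 to 67.2 CPM with a median of 10.8. Their ratio to cortex had a median of 2.24, beside 2.23 for the 98 members outside both special groups. All 15 had every hippocampus library above every thalamus library, as in 442 (2.24%) of all matched promoters. The ratio that defined the 15 largely builds this in. Above cortex in all 10 rats were 10 of them, a count whose share over all matched promoters was not computed. Their thalamus values rest on few reads, with medians over the libraries down to 11.5 reads and a median of 34.5 over the 15. These promoters were set apart by a low thalamus value, not by a larger excess over cortex.

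The extreme case was ENSRNOG00000027365, named after its values were seen, whose counts were the same as those of ENSRNOG00000048957 in all 3 tissues, so that the pair is 1 measurement. Its CPM in the sham hippocampus was 469, 253, 652, 733 and 239, and in the TBI hippocampus 461, 700, 583, 459 and 410. In the sham cortex it was 85.2, 206, 223, 610 and 213, and in the TBI cortex 393, 218, 181, 187 and 51.6. In thalamus it lay between 1.66 and 6.34 CPM, from a median of 11.5 reads. No thalamus library came near the lowest cortex library, and cortex rats 4 and 6 again lay among the hippocampus values.

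A group of 6 members had an extreme value in 1 library. In the hippocampus of TBI rat 9 their CPM + 1 was 48.9 to 62.4 times that of the median of the other 9 hippocampus libraries. In the members outside both special groups the same ratio had a median of 0.953. Without this library the hippocampus medians of the 6 fell to between 73.7% and 91.8% of their values, and with the other tissues' medians unchanged 4 of the 6 would still meet the rule, with the lowest ratio to cortex at 1.74. ENSRNOG00000002413 had 479, 376, 111, 266 and 73.7 CPM in the sham hippocampus and 483, 86.0, 142, 16052 and 404 CPM in the TBI hippocampus. ENSRNOG00000045803 had 224, 132, 34.2, 103 and 26.8 CPM in the sham hippocampus and 191, 34.2, 64.5, 6143 and 157 CPM in the TBI hippocampus. In thalamus the first of these stayed between 7.53 and 14.4 CPM and the second between 0.473 and 10.9 CPM. In the cortex of rat 9 they had 55.4 and 25.4 CPM, and in its thalamus 14.4 and 5.26 CPM, values inside or at the edge of the range of the other rats.

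The same 6 members also divided the other hippocampus libraries in the same way. In each of the 6, the libraries of rats 1, 2, 6 and 10 were all above those of rats 3, 5, 7 and 8, which are 2 sham and 2 TBI rats on either side, with rat 4 between them. For ENSRNOG00000002413 the first 4 lay between 376 and 483 CPM and the second 4 between 73.7 and 142 CPM. The ratio of the medians of these sets ran from 2.97 to 5.08 over the 6 members. Of all 19758 matched promoters, 42 (0.213%) divided the libraries in this way. Of the 67 promoters that were at least 8 times higher in rat 9 than in the other 9 on the CPM + 1 scale, 16 did (23.9%), these 6 among them. The division was noticed in these values and was not tested.

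The reads counted over gene bodies gave a separate but sparse view of the same genes. All 119 members had a gene body row, but 43 had no read in hippocampus, 29 none in cortex and 43 none in thalamus. The members' rows held 1.42% of all gene body reads in hippocampus, 0.932% in cortex and 0.709% in thalamus. A single row held 33.9%, 30.3% and 25.3% of these reads, and without it the shares were 0.938%, 0.650% and 0.530%. Of the 35 members with at least 100 gene body reads over the 30 libraries, 32 (91.4%) had a higher median in hippocampus than in both other tissues, relative to the promoter reads of each library. Over all 2991 gene body rows with as many reads the share was 62.4%. The libraries are the same ones that chose the members, so this too is a description.

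The contrast of TBI with sham rats, the question of the study, was not used to choose the members, although the libraries of both groups were. ENSRNOG00000022378 and ENSRNOG00000010224 met the rule only with hippocampus rat 9 included. Without it their ratios to cortex were 1.83 and 1.74, with the cortex medians unchanged. That library also gave their extreme values, so their TBI and interaction results below are not independent of the choice. TBI and sham rats were compared in each tissue over all promoter rows. The test was edgeR's quasi-likelihood test with Benjamini-Hochberg adjustment at 0.05. In hippocampus no row of 20017 passed (0% called), and 0 of the 119 members did. At an unadjusted p under 0.05 there were 574 rows (2.87%), 254 higher in TBI rats (1.27%) and 320 lower, and 7 of the 119 members (5.88%), all 7 higher. Of these, 6 were the members with the extreme value in rat 9. Without rat 9, 1 of the 119 members was under that level, beside 544 of 20076 rows. DESeq2 also called 0 rows, with 394 of 20017 rows and 1 member at an unadjusted p under 0.05. It returned no adjusted p-value for the 6 members with the extreme value in rat 9, whose log2 fold changes were 3.20 to 3.54. The count of 1 is therefore no second result on those 6. Another alternative was edgeR's older exact test, run with 1 common dispersion for all rows and with promoter totals in place of TMM factors. With it 157 rows (0.784%) passed in hippocampus, 68 of them higher (0.340%), and so did 6 members, all higher in TBI rats. With rat 9 left out of that test, 88 rows (0.438%) passed and 0 members.

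Most differences in hippocampus were small, apart from those of the rat 9 group. The log2 fold change of TBI over sham ran from -0.40 to 3.53 over the members with a median of 0.05, and the median standard error was 0.30. It was above 0 in 81 of the 119. Without sham rat 5 the median was -0.16 with 19 above 0, and without rats 5 and 9 it was -0.11 with 18 above 0, and without rat 2 or rat 7 it was -0.05 or -0.029. The direction of this median therefore turned on single libraries. At ENSRNOG00000002413 the log2 fold change was 3.53 ± 1.17 (SE, 5 sham and 5 TBI libraries), with an edgeR p of 0.00763 and an adjusted p of 1.00. Leaving out rats 5 and 9 gave -0.13.

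ENSRNOG00000016284 was the 1 member outside the rat 9 group with an unadjusted p under 0.05. Its mean was 71.6 ± 2.81 CPM (SD, n = 5) in the TBI hippocampus and 58.7 ± 7.66 CPM (SD, n = 5) in the sham hippocampus. The groups overlapped, since sham rat 4 had 67.8 CPM and TBI rat 9 had 67.4 CPM. The log2 fold change was 0.33 ± 0.16 (SE), with an edgeR p of 0.0491 and an adjusted p of 1.00, and it stayed between 0.27 and 0.42 when each rat was left out in turn. This difference did not pass the adjustment over all promoters. In cortex its log2 fold change was 0.19 ± 0.19 (SE) and in thalamus 0.12 ± 0.24 (SE).

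At ENSRNOG00000006876 the hippocampus mean was 94.1 ± 25.9 CPM (SD, n = 5) in TBI and 82.2 ± 24.6 CPM (SD, n = 5) in sham rats. The log2 fold change was 0.18 ± 0.26 (SE), with an edgeR p of 0.512 and an adjusted p of 1.00. It was 0.09 ± 0.45 at ENSRNOG00000025889, -0.04 ± 0.39 at ENSRNOG00000006681 and 0.24 ± 0.50 at ENSRNOG00000024145 (all SE). All were within their standard errors.

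Sham and TBI rats were not fully separate at any member. In no tissue did the 5 TBI libraries of a member all lie above or all lie below the 5 sham libraries. Over all matched promoters this held for 12 higher in TBI (0.0607%) and 25 lower (0.127%) in hippocampus. In cortex it held for 4 higher (0.0202%) and 8 lower (0.0405%), and in thalamus for 1 higher (0.00506%) and 7 lower (0.0354%).

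In cortex the direction depended on which of the libraries that stood apart was kept. With all 10 libraries no row of 22110 passed, 171 rows (0.773%) had an unadjusted p under 0.05, and 0 of the 119 members did. DESeq2 called 0 rows and the exact test 7, with 0 members among them. The members' median log2 fold change was -0.26, with 6 above 0. Without sham rat 4 it was 0.23, with 105 above 0 and 0 members under 0.05. Without TBI rat 6 it was -0.83, with 66 of the 119 members under an unadjusted p of 0.05, all lower, beside 705 of 22164 rows lower (3.18%). Without both it was -0.33, with 13 members under that level, all lower, beside 179 of 22152 rows lower (0.808%). No row and no member passed the adjusted threshold in any of these fits. With both left out 3 members had all TBI cortex libraries below all sham ones (2.52%), beside 66 promoters (0.334%) over all.

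In thalamus 0 of 21894 rows passed, 198 rows (0.904%) had an unadjusted p under 0.05, and 0 members did. DESeq2 and the exact test also called 0 rows. The members' median log2 fold change was 0.20 with 108 above 0, and when TMM factors were replaced by the promoter totals it was 0.05 with 81 above 0. Without TBI rat 6 it was -0.12 with 25 above 0. Then 18 members had an unadjusted p under 0.05, 16 lower and 2 higher, beside 590 of 21978 rows lower (2.68%) and 677 higher (3.08%). In this tissue too the sign of the members' median was set by the library of rat 6.

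**Figure D5:**
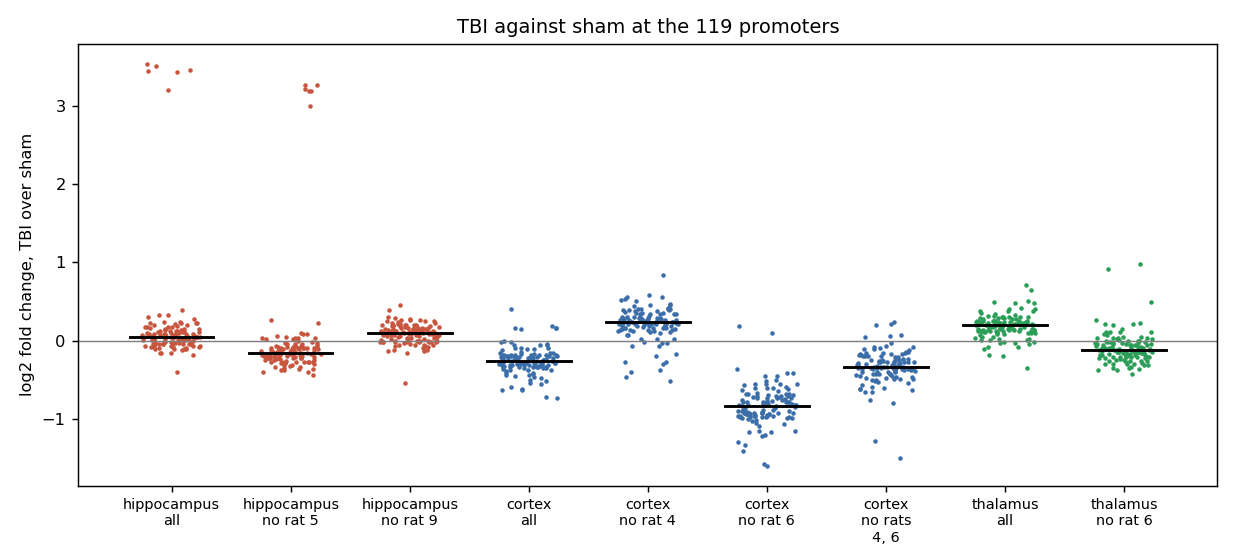
The log2 fold change of TBI over sham at each of the 119 members (points) and their median (bar), from edgeR's quasi-likelihood fit on all libraries of a tissue and with the named rats left out; sideways position is only to separate points. The cortex median lies at -0.26 with all libraries, at 0.23 without rat 4 and at -0.83 without rat 6, and the 6 hippocampus points above 3 vanish without rat 9.

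Whether TBI acted differently on these promoters in hippocampus was addressed by fitting tissue, operation and their product together in 1 edgeR model. Against cortex 0 of 19640 rows passed, 309 (1.57%) had an unadjusted p under 0.05, and 6 members did, all with a higher log2 fold change in hippocampus (0.657% of all rows) and all from the rat 9 group. The members' median interaction was 0.32 on the log2 scale. With the rat as a block 1 member was under that level, beside 310 of 19695 rows, and the members' median was 0.52. Against thalamus 0 of 19558 rows passed, 367 (1.88%) had an unadjusted p under 0.05, and 4 members did, all higher (0.619% of all rows) and from the rat 9 group, with a median interaction of -0.16. With the rat as a block this fell to 149 of 19676 rows and 0 members, with a median of 0.06. Without rat 9 no member was under that level in either comparison, beside 350 of 19646 rows against cortex and 352 of 19559 against thalamus. Without rat 6, 15 members were under it against cortex, all higher and 9 of them outside the rat 9 group, with a median of 0.94, beside 874 rows (4.44%). Without rat 5, 10 members were under it against thalamus, 4 higher and 6 lower, with a median of -0.46, beside 459 rows (2.34%). Without rat 4 the median was -0.034 against cortex and 0.077 against thalamus, and without rat 6 it was 0.22 against thalamus, so the direction of neither median was stable.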

How the data were processed

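The authors mapped the MBD-seq reads with STAR to Rnor_5.0 and used R 3.1.0 (Repitools) to make the deposited tables of read counts per promoter, exon and gene body, not normalized, for each tissue. Here the promoter counts were matched by identifier where it had a single set of counts in each tissue and divided by the column sum to give CPM. The gene body counts were summed by tissue, and the 3 exon tables were not used because no comparison here concerns exons. The members and lists were chosen with earlier results of these data known. Members were to be named by symbol, and without one only the 3 with the highest smaller ratio and the 3 with the highest hippocampus level. The marker lists gave no result, since no symbol could be paired.

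TBI and sham rats were compared with edgeR 4.0.16 (quasi-likelihood test, TMM factors, filterByExpr with a minimum count of 10 and total of 15, R 4.3.3), after a check on simulated data, with DESeq2 1.42.0 and edgeR's exact test as alternatives. All 119 members passed the filter. In the quasi-likelihood fits within a tissue, p-values measure the spread between rats. The main interaction fits had no rat term, so libraries of the same rat counted as independent. The exact test used 1 dispersion for all rows and not the spread of each row. Replicate libraries all differed by more than sampling noise (lowest chi-square per degree of freedom 2.07 over 60 pairs). Rat numbers mark the same animal in each tissue. The deviations of hippocampus and cortex libraries of a rat correlated with a median of 0.03, and those of hippocampus and thalamus with -0.06. Totals of reads are promoter reads, not library depth, and the members' median was 386.5 reads in the middle hippocampus library, while in thalamus single members rest on medians down to 11.5 reads.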

Additional observations from a re-analysis of the deposited data

Results flagged for a closer look

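Of 60 groups of 5 libraries looked at (the members' median and summed CPM and the 8 named members), 7 had a value that lay far from the other 4 by Dixon's criterion. Chance gives about 1 in 20 for independent groups. These groups share libraries, the summed CPM includes the named members, and some members were named after their values were seen. The 7 can therefore not be set against that rate. The summed CPM of the members in the hippocampus of TBI rat 9 was 71272, beside 25908 to 37481 in the other TBI rats. In the same library ENSRNOG00000002413 had 16052 CPM, beside 86.0 to 483, and ENSRNOG00000045803 had 6143 CPM, beside 34.2 to 191. In cortex ENSRNOG00000002413 was high in sham rat 3 with 238 CPM, beside 22.0 to 82.8, and in TBI rat 6 with 166 CPM, beside 18.5 to 55.4. In the cortex of sham rat 4 ENSRNOG00000024145 had 1782 CPM, beside 146 to 551, and ENSRNOG00000027365 had 610 CPM, beside 85.2 to 223. What set these libraries apart was not tested.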

How the results depend on the processing

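Scaling decided how many promoters met the rule. With TMM factors 759 did, with column sums without the top 1% of promoters 251, with quantile normalization (chosen after seeing the data) 184, of which 60 were among the 119, with means in place of medians 79, and without the 4 libraries that stood apart 191. All 119 were among the 759, the 251 and the 191. The 4 libraries left out for the 191 had the lowest member level in hippocampus or the highest levels in cortex and thalamus. At 1.5 times 594 met it and at 3 times 12, and leaving out 1 rat in turn gave 83 to 168. The sham rats alone gave 89 and the TBI rats alone 167. In TBI against sham, the exact test with 1 common dispersion and promoter totals called 157 rows in hippocampus and 6 members, and 7 rows in cortex. With rat 9 left out (chosen after seeing the data), it called 88 rows in hippocampus. Every other alternative called 0 rows in all 3 tissues. The members' median log2 fold change with 1 rat left out ran from -0.16 to 0.24 in hippocampus, -0.83 to 0.23 in cortex and -0.12 to 0.29 in thalamus. The interaction medians ran from -0.03 to 0.94 against cortex and from -0.46 to 0.22 against thalamus, and the rat block gave 0.52 and 0.06 with 0 rows called.

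Among named members in hippocampus, leaving out 1 rat in turn gave -0.039 to 0.33 at ENSRNOG00000006876, -0.17 to 0.30 at ENSRNOG00000025889, -0.22 to 0.11 at ENSRNOG00000006681 and -0.086 to 0.35 at ENSRNOG00000027365. Without rats 5 and 9 the values were -0.018 at ENSRNOG00000006876, -0.13 at ENSRNOG00000002413, -0.14 at ENSRNOG00000045803, -0.11 at ENSRNOG00000025889, -0.032 at ENSRNOG00000024145 and -0.017 at ENSRNOG00000027365. The exact test without rat 9 gave 0.073 at ENSRNOG00000006681. The cause of these changes was not tested.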
